A study of Rattus norvegicus with 8 samples.

Results

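The CC chemokine ligands measured here were Ccl2, Ccl3, Ccl4, Ccl5, Ccl7, Ccl11, Ccl20, Ccl21, Ccl22 and Ccl28, which are 10 of the 14217 genes named on the array. They were taken as all probe sets annotated to exactly 1 of these symbols, which gave 11 of 31099 probe sets: 1 per gene, and a pair for Ccl22. Of these, 7 probe sets, 1 each of Ccl2, Ccl3, Ccl4, Ccl5, Ccl7, Ccl20 and Ccl21, passed the filter on low values and were tested. Ccl11, Ccl28 and both probe sets of Ccl22 were too dim and are given as values.

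CC chemokines are small secreted proteins with a pair of adjacent cysteines near the amino terminus. They bind G protein-coupled receptors on leukocytes and direct their migration along a gradient held on matrix and cell surfaces. In epithelial organs, epithelial cells, stromal cells, endothelium and resident macrophages can each make some of them, and many are induced by inflammatory cytokines through the transcription factor NF-kappaB. Vinclozolin is a fungicide with antiandrogenic activity, and the ventral prostate is an androgen-dependent gland of the rat.

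The series compared descendants of vinclozolin-exposed and of control Sprague-Dawley rats, 3 generations after pregnant founders had received intraperitoneal injections from gestation day 8 to day 14. The groups, each of 2 arrays, were prostate epithelium from 45-day-old vinclozolin lineage males, prostate epithelium from 45-day-old control lineage males, whole ventral prostate from 180-day-old vinclozolin lineage males and whole ventral prostate from 180-day-old control lineage males. Each epithelium sample pooled 11 animals and each whole prostate sample several animals, so the spread between animals was not measured. The treatment protocol of all 8 samples names the vehicle, DMSO, so the lineages are those of the sample titles. The labels do not say that the 2 samples of a group were separate pools, and p-values therefore measure only the spread between these samples, which may be technical. Preparation and age changed together, so they cannot be told apart.

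The arrays of a group correlated with each other at a Spearman coefficient of 0.93 to 0.95 across probe sets, against 0.87 to 0.89 between epithelium and whole prostate arrays. Arrays of different lineages within a preparation correlated at 0.92 to 0.93, so some of these pairs were as alike as arrays of a group. Luminal markers were bright in both preparations. The androgen-regulated secretory gene Pbsn averaged 7978 and 7376 intensity units in vinclozolin and control epithelium, and 6574 and 7148 in vinclozolin and control whole prostate. The preparation titled epithelium was not depleted of stroma by its markers. Its 5 smooth muscle markers summed to between 11141 and 12838 units per array, against 1700 to 2213 units in whole prostate, and its 6 fibroblast markers to between 8857 and 9538 units, against 2531 to 2859 units. The 3 basal epithelial keratins summed to between 2443 and 2598 units in epithelium, against 398 to 505 units in whole prostate.

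Stretches of promoter are shown for the called members that differed between the preparations in opposite directions and that the RefSeq promoter table of build GRCr8 holds, which are Ccl20 and Ccl21. Each runs 5′ to 3′ on the gene's strand, from 250 to 51 bases before the start used in that table. The window of Ccl20 lies at chr9:91836909-91837108 on the plus strand, and that of Ccl21 at chr5:61777566-61777765 on the minus strand. Capitals mark a match, on either strand, to a spelling of the NF-kappaB (kappaB) site, taken as 3 G, then 2 bases of any kind, 3 T and 2 C.
Ccl20: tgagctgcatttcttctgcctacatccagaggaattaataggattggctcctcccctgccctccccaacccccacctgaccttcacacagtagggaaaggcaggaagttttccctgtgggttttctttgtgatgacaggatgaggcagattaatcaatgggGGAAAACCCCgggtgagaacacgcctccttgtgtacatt
Ccl21: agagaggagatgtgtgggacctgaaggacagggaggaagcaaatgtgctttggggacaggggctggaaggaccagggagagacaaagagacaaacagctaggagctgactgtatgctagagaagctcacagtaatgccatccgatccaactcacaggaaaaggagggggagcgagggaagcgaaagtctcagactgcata
The marked stretch begins 89 bases before the start of Ccl20 and is on the reverse strand. A looser kappaB spelling, 3 G, 5 bases of any kind and 2 C, had 2 forward and 3 reverse matches in the Ccl20 window, some of them overlapping. Of 33469 promoter windows of this length, 1% held the stricter and 35.2% the looser spelling. The table held 5 of the members, and Ccl7, Ccl21, Ccl22 and Ccl28 had no match to the stricter spelling in these windows, while Ccl22 had 2 to the looser one. The AP-1 spelling TGANTCA, found in 5.22% of windows, was in that of Ccl7 alone of the 5. In all, 8 motif spellings were searched on both strands. The TATA spelling TATAAA (9.98% of windows), the STAT site TTCNNNGAA (6.29%) and the CRE TGACGTCA (0.944%) had no match in the 5. The interferon-stimulated response element core (2.64%) and the exact kappaB site (0.0747%) had none either. The windows end 51 bases before the start, so a TATA box nearer to it could not be found. A match describes letters and not a bound site.

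Ccl20 was by far the most variable of these genes. It encodes the ligand of Ccr6 and is known for attracting immature dendritic cells and lymphocytes to epithelia. Its intensity was 975 and 1058 units in vinclozolin epithelium, 1261 and 1182 units in control epithelium, 11.8 and 21.1 units in vinclozolin whole prostate, and 19.7 and 25.0 units in control whole prostate. The epithelium arrays did not overlap the whole prostate arrays in either lineage, while the lineages overlapped in whole prostate and lay apart in epithelium, where both vinclozolin arrays were below both control arrays. On the epithelium arrays the probe set ranked between the 96.3 and 97.1 percentile of all probe sets, and on the whole prostate arrays between the 29.0 and 46.7 percentile, where no detection call says whether it was above background.

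Ccl20 was higher in vinclozolin epithelium than in vinclozolin whole prostate by 4.98 ± 0.15 on the log2(intensity + 16) scale (SE, n = 2 arrays per group), and limma gave an adjusted p of 1.93e-05. The same difference between the control groups, whose means came from the other 4 arrays, was 4.88 ± 0.15 (adjusted p = 2.89e-05). Both differences share an estimate of spread from all 8 arrays, so their p-values are not independent. These correspond to 31.5-fold and 29.4-fold on that scale, and the ratios of mean deposited intensities were 61.8 and 54.6. The whole prostate values may lie at background, so these describe the recorded signals, and the size of the fold is neither exact nor a bound. Among the fitted differences of 21729 probe sets, Ccl20 had that of rank 8 from the highest in the vinclozolin lineage and of rank 9 in the control lineage. It was called under each of the 18 alternatives in each lineage, with log2 differences from 4.44 to 5.83 and from 4.43 to 5.50.

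**Figure D1:**
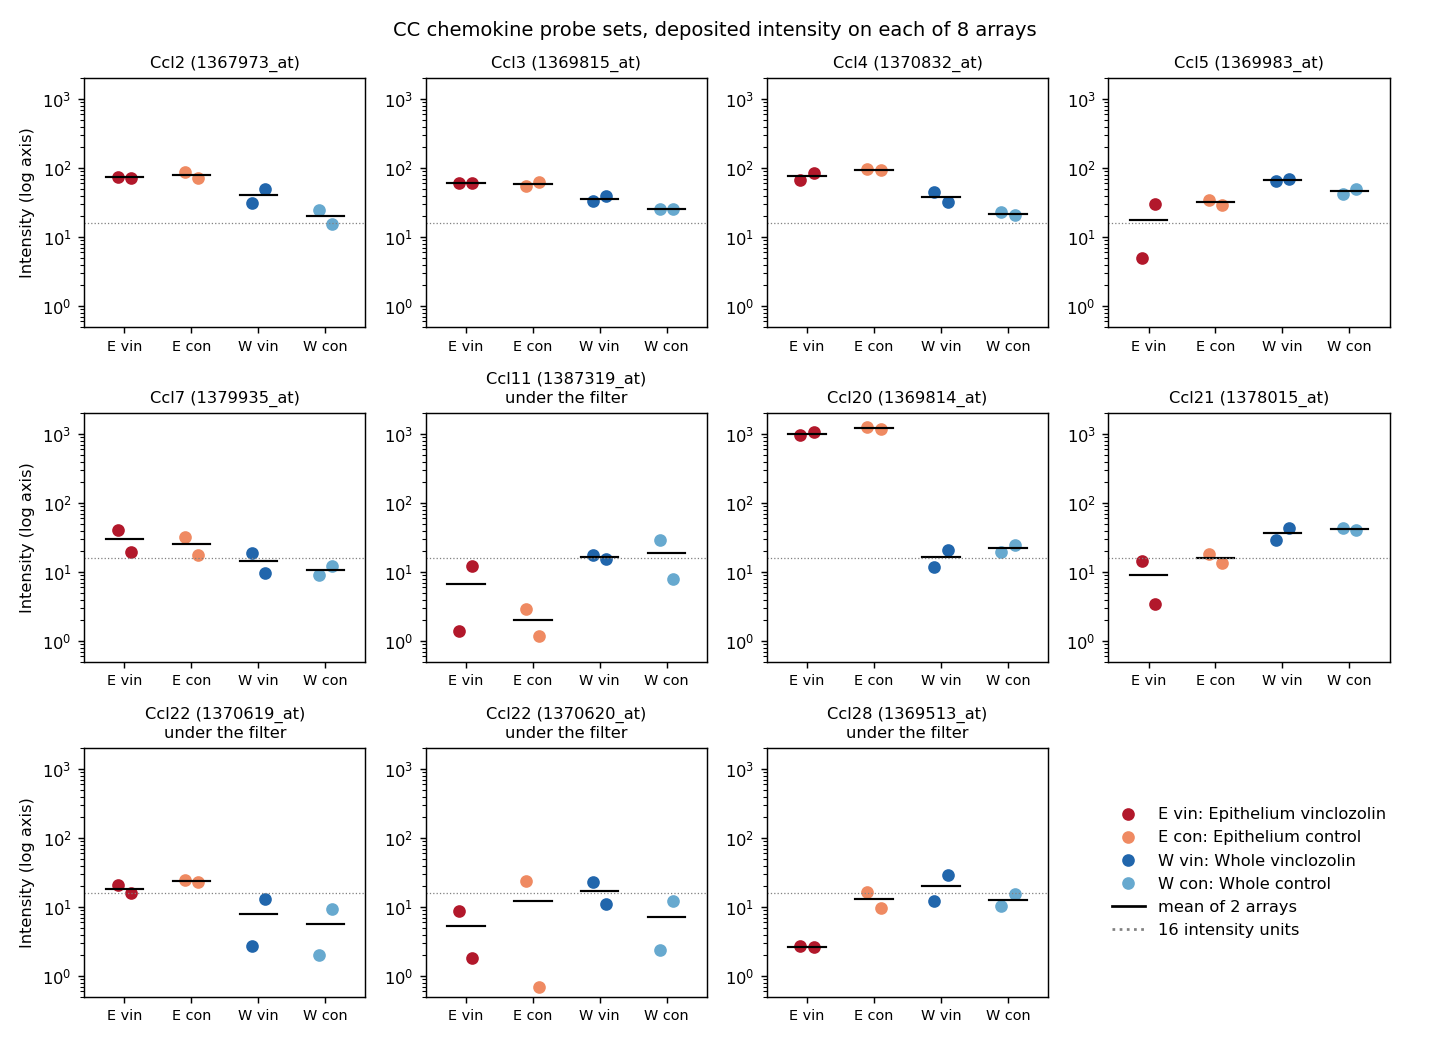
Deposited intensity of each CC chemokine probe set (log axis, same range in every panel) on the 8 arrays, with both arrays of a group as points and their mean as a line. Ccl20 lies between 975 and 1261 units on the epithelium arrays and between 11.8 and 25.0 units on the whole prostate arrays, and the highest value of any other member is the 97.4 units of Ccl4.

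The inflammatory macrophage chemokines Ccl3 and Ccl4, which are neighbouring genes on chromosome 10, were both higher in epithelium, in the control lineage. Ccl4 read 67.9 and 86.2 units in vinclozolin epithelium, 97.4 and 92.8 units in control epithelium, 44.7 and 32.4 units in vinclozolin whole prostate, and 23.4 and 20.6 units in control whole prostate. All 4 epithelium arrays were above all 4 whole prostate arrays, and within whole prostate both vinclozolin arrays were above both control arrays. The control epithelium mean exceeded that of control whole prostate by 1.37 ± 0.17 (adjusted p = 0.00241, limma). In the vinclozolin lineage the difference was 0.60 ± 0.17 (adjusted p = 0.0406), and this call was lost under 11 of 18 alternatives, with adjusted p from 0.0139 to 0.175 over all of them.

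Ccl3 read 60.5 and 60 units in vinclozolin epithelium, 54.8 and 62.6 units in control epithelium, 33.2 and 39.4 units in vinclozolin whole prostate, and 25.9 and 25.6 units in control whole prostate. The order of the groups was that of Ccl4 except that the epithelium groups overlapped. Ccl3 was higher in control epithelium than in control whole prostate by 0.61 ± 0.12 (adjusted p = 0.0123). The call was lost without control epithelium replicate 2 (adjusted p = 0.0525) and without either control whole prostate array (adjusted p = 0.0657 and 0.0707). In the vinclozolin lineage the difference was 0.34 ± 0.12 and did not pass (adjusted p = 0.0767), although it passed on the values as deposited (0.55, adjusted p = 0.0166) and with the filter at the 50th percentile (adjusted p = 0.0413).

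Ccl2, the monocyte chemoattractant that binds Ccr2, read 73.8 and 72.7 units in vinclozolin epithelium, 87.5 and 71.5 units in control epithelium, 31.2 and 49.8 units in vinclozolin whole prostate, and 25.1 and 15.3 units in control whole prostate. The epithelium groups overlapped each other and lay above both whole prostate groups. Ccl2 was higher in control epithelium than in control whole prostate by 1.21 ± 0.21 (adjusted p = 0.00843), a call lost without control whole prostate replicate 2 (1.00, adjusted p = 0.0543). The difference in the vinclozolin lineage was 0.50 ± 0.21, with a 95% interval from -0.02 to 1.01, and did not pass (adjusted p = 0.134). It was 0.26 without vinclozolin whole prostate replicate 1. Ccl7, the neighbour of Ccl2 on chromosome 10 and another ligand of Ccr2, read 40.3 and 19.6 units in vinclozolin epithelium, 32.7 and 17.9 units in control epithelium, 19.1 and 9.8 units in vinclozolin whole prostate, and 9.2 and 12.3 units in control whole prostate. Its arrays spread widely within groups, and its differences of 0.40 ± 0.28 in each lineage did not pass (adjusted p = 0.323 in the vinclozolin and 0.326 in the control lineage).

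Ccl5 and Ccl21 ran the other way. Ccl5, made by activated T cells, platelets and other cells, read 5.0 and 30.2 units in vinclozolin epithelium, 34.7 and 29.5 units in control epithelium, 65.0 and 69.1 units in vinclozolin whole prostate, and 41.7 and 50.1 units in control whole prostate. Replicate 1 of vinclozolin epithelium was far below the other 7 arrays. Ccl5 was lower in vinclozolin epithelium than in vinclozolin whole prostate by a log2 difference of -1.58 ± 0.32 (adjusted p = 0.0138), which was -1.04 without that array (adjusted p = 0.0126). The call was lost with a pseudocount of 1 (-2.61, adjusted p = 0.0559), with only the 4 arrays compared (adjusted p = 0.0595) and without either vinclozolin whole prostate array (adjusted p = 0.0558 and 0.0629). In the control lineage the difference was -0.55 ± 0.32 and did not pass (adjusted p = 0.247), but it did pass (adjusted p = 0.0257) once either vinclozolin epithelium array was left out of the shared estimate of spread, and with only the control arrays in the fit (adjusted p = 0.0459).

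Ccl21, the Ccr7 ligand that lymphatic endothelium and lymphoid stroma make to guide dendritic cells and naive T cells, read 14.7 and 3.4 units in vinclozolin epithelium, 18.3 and 13.6 units in control epithelium, 29.7 and 43.8 units in vinclozolin whole prostate, and 43.6 and 41.4 units in control whole prostate. Each epithelium array was below each whole prostate array. On the epithelium arrays the probe set ranked between the 10.8 and 31.7 percentile, where values may lie at background, so the size of the difference is uncertain. It did not pass the alternative filter at the 50th percentile. The log2 difference was -1.27 ± 0.22 in the vinclozolin lineage (adjusted p = 0.00805) and -1.06 ± 0.22 in the control lineage (adjusted p = 0.0145). With a pseudocount of 1 these were -2.47 (adjusted p = 0.0296) and -1.67 (adjusted p = 0.083), and the control lineage call was also lost without control epithelium replicate 2 or either control whole prostate array (adjusted p = 0.0647, 0.0803 and 0.0665). Lyve1, a lymphatic endothelial and macrophage surface receptor, was lower in epithelium too, by a log2 difference of -2.39 in the vinclozolin and -2.10 in the control lineage (adjusted p = 0.0012 and 0.00188), whereas Pdpn, which basal cells and fibroblasts share with lymphatic vessels, was higher by 0.91 and 1.40 (adjusted p = 0.0142 and 0.00304). These were the 1 lower and the 1 higher call among 5 tested lymphatic markers in each lineage. The others were not called, with vinclozolin and control lineage differences of -0.53 and 0.06 for Prox1, 0.2 and 0.09 for Flt4, and -0.44 and -0.4 for Reln. The part of lymphatic vessel content in the Ccl21 result was not tested. In samples of mixed cells, fewer cells of a type and less RNA per cell cannot be told apart.

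Counted together, 2 of the 7 tested members were called higher and 2 lower in vinclozolin epithelium against vinclozolin whole prostate, against a background of 13.1% of all probe sets higher and 14.2% lower. In control epithelium against control whole prostate, 4 were called higher and 1 lower, against a background of 12.9% higher and 15% lower. The median log2 difference of the 7 was 0.40 and 0.61, against -0.06 and -0.05 over all probe sets tested. After normalisation the groups did not overlap for 6 and 7 of the 7, where this held for 65.4% and 66.6% of all probe sets. The count of 4 in the vinclozolin lineage was 2 without vinclozolin whole prostate replicate 2, and the count of 5 in the control lineage was 3 without control epithelium replicate 2 and 3 and 2 without control whole prostate replicates 1 and 2.

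**Figure D2:**
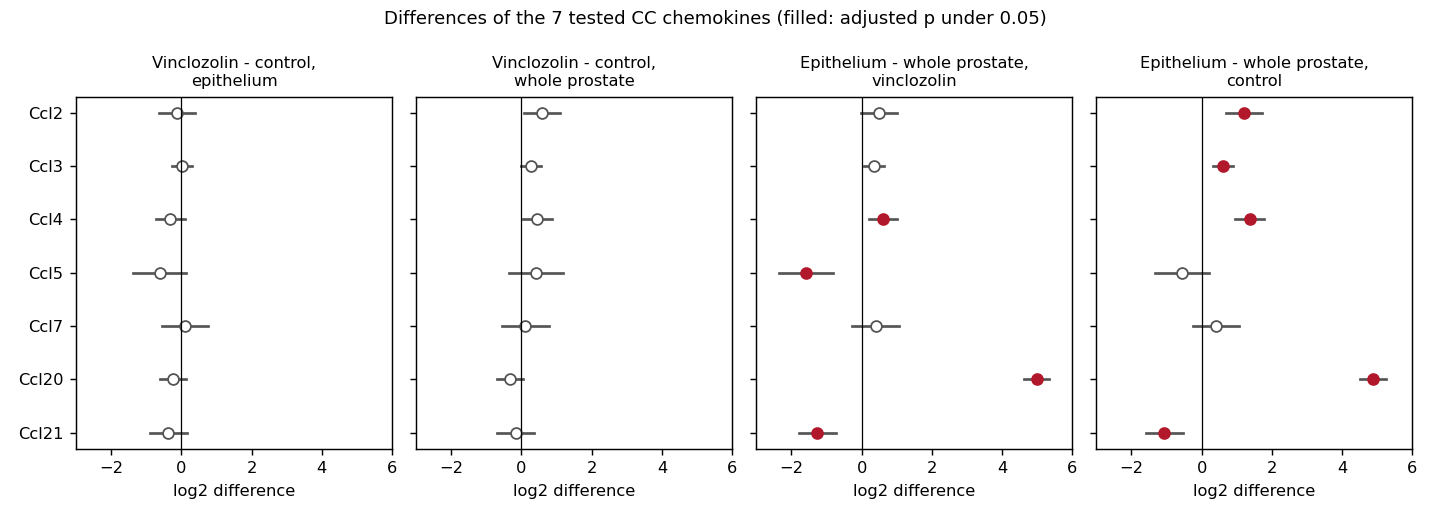
Log2 differences of the 7 tested CC chemokines with 95% intervals in 4 comparisons, filled where the adjusted p was under 0.05. Ccl20 stands near 5 in both comparisons of epithelium with whole prostate, and no member is filled in the comparisons of the lineages.

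No CC chemokine was called between the lineages. In vinclozolin whole prostate against control whole prostate, limma called 0 of the 7, where 1.74% of all probe sets were called, and 2 of the 7 had an unadjusted p under 0.05, where 18.7% of all probe sets had. These were Ccl2, at 0.59 ± 0.21 with a 95% interval from 0.08 to 1.11 (adjusted p = 0.213), and Ccl4, at 0.45 ± 0.17 with an interval from 0.05 to 0.86 (adjusted p = 0.225). With 1 array left out, Ccl2 measured 0.36 without vinclozolin whole prostate replicate 2 and 0.38 without control whole prostate replicate 2, and Ccl4 measured 0.27 without vinclozolin whole prostate replicate 1. Ccl5 measured 0.41 ± 0.32 (interval from -0.35 to 1.17, adjusted p = 0.544) and Ccl3 0.27 ± 0.12 (interval from -0.01 to 0.56, adjusted p = 0.287). After normalisation both vinclozolin arrays were above both control arrays for these 4 genes, which held for 26.1% of all probe sets. Ccl20, at -0.33 ± 0.15 (interval from -0.70 to 0.03, adjusted p = 0.308), was the 1 member with both vinclozolin arrays below after normalisation, as 27.8% of all probe sets were, although its deposited intensities overlapped, and it measured -0.16 without vinclozolin whole prostate replicate 1 and -0.51 without replicate 2. Ccl7 (0.11 ± 0.28) and Ccl21 (-0.17 ± 0.22) overlapped between the lineages. The median of the 7 was 0.27, against -0.01 over all probe sets.

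Leukocyte markers in the same samples are given beside these values, and most did not pass the test. Of all 21729 probe sets tested, 1.74% were called between the lineages in whole prostate, and 10588 had a positive difference. The 11 T and NK cell markers summed to between 400 and 420 units in vinclozolin whole prostate, against 197 to 254 units in control whole prostate, and 5 of the 6 tested had a positive difference with 0 called. The 3 dendritic cell markers summed to between 160 and 175 units, against 60.5 to 102 units, with 0 of 2 tested called. Of the 10 tested macrophage and monocyte markers, 2 were called higher, the receptors Csf1r (1.11, adjusted p = 0.0261) and Fcgr3a (1.17, adjusted p = 0.0404), and 0 lower. The sum over the 11 macrophage markers was lower, at 5046 to 5807 units against 7337 to 7931 units, and the lysozyme gene Lyz2 alone averaged 3805 against 5900 units within it. No marker of these lists was at 0 on any array, but 1 of the 11 T and NK cell markers stayed under 16 units on every array. The 3 tested B and plasma cell markers and the 3 tested mast cell markers had 0 called. The part of leukocyte content in the chemokine values was not tested.

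In vinclozolin epithelium against control epithelium, limma also called 0 of the 7, where 0.0092% of all probe sets were called, and 0 of the 7 had an unadjusted p under 0.05, where 11.4% of all probe sets had. Ccl5 measured -0.62 ± 0.32 (interval from -1.38 to 0.14, adjusted p = 0.523), and -0.08 without vinclozolin epithelium replicate 1 and -1.16 without replicate 2. Ccl21 measured -0.38 ± 0.22, Ccl4 -0.31 ± 0.17 and Ccl20 -0.23 ± 0.15, the last with an interval from -0.60 to 0.14. Ccl21 measured -0.66 and -0.09 without vinclozolin epithelium replicate 1 and 2, and Ccl4 -0.16 without replicate 1. After normalisation both vinclozolin arrays were below both control arrays in these 4, as in 19.7% of all probe sets, although the deposited intensities of Ccl5 and Ccl21 overlapped. Ccl2 (-0.12 ± 0.21), Ccl3 (0.01 ± 0.12, interval from -0.28 to 0.29) and Ccl7 (0.11 ± 0.28) overlapped. The median of the 7 was -0.23, against 0.00 over all probe sets.

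The lineage differences in epithelium and in whole prostate were set against each other in an interaction term, and 0 of the 7 members were called, where 0.29% of all probe sets were. The lowest p belonged to Ccl4, whose lineage difference was lower in epithelium than in whole prostate by 0.76 ± 0.24 on the log2 scale, written as -0.76, with an interval from -1.34 to -0.19 (unadjusted p = 0.0166, adjusted p = 0.268). It was the 1 of the 7 tested members with an unadjusted p under 0.05, where 13.5% of all probe sets had one. Ccl28, which did not pass the filter, measured -0.84 ± 0.33 in the limma fit without it (unadjusted p = 0.0395, adjusted p = 0.427). Among the 7, Ccl5 (-1.03 ± 0.45, adjusted p = 0.386) and Ccl2 (-0.72 ± 0.30, adjusted p = 0.374) had the next lowest p. Ccl5 measured -0.49 without vinclozolin epithelium replicate 1 and -1.57 without replicate 2. For Ccl20 the term was 0.10 ± 0.22 with an interval from -0.41 to 0.62.

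The remaining members were dim on every array, and Ccl22, the Ccr4 ligand made by dendritic cells and macrophages, had probe sets that disagreed. One of them read 21.0 and 16 units in vinclozolin epithelium, 25.0 and 22.9 units in control epithelium, 2.7 and 13.2 units in vinclozolin whole prostate, and 2.0 and 9.5 units in control whole prostate, so that every epithelium array was above every whole prostate array. The other read 8.7 and 1.8 units in vinclozolin epithelium, 23.9 and 0.7 units in control epithelium, 23.1 and 11.1 units in vinclozolin whole prostate, and 2.4 and 12.2 units in control whole prostate. On that probe set the epithelium arrays were the lower ones in the vinclozolin lineage and overlapped whole prostate in the control lineage. Values this low carry little order, and no call was made on either.

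Ccl11, eotaxin, the Ccr3 ligand that attracts eosinophils, read 1.4 and 12.1 units in vinclozolin epithelium, 2.9 and 1.2 units in control epithelium, 17.7 and 15.3 units in vinclozolin whole prostate, and 29.5 and 8.0 units in control whole prostate. The epithelium arrays were below the whole prostate arrays within each lineage. Ccl28, an epithelial ligand of Ccr10, read 2.7 and 2.6 units in vinclozolin epithelium, 16.7 and 9.8 units in control epithelium, 12.1 and 28.9 units in vinclozolin whole prostate, and 10.2 and 15.4 units in control whole prostate. Vinclozolin epithelium was the lowest group of Ccl28 and did not overlap the others. When the filter was dropped, Ccl28 was called lower in vinclozolin epithelium than in vinclozolin whole prostate (log2 difference -1.03 ± 0.23, adjusted p = 0.0301), and it was not called between the lineages in epithelium (-0.58 ± 0.23, adjusted p = 0.501). On the vinclozolin epithelium arrays Ccl28 ranked at the 8.0 and 8.3 percentile. Values there may lie at background, so the size of these differences is uncertain. Ccl11 and both probe sets of Ccl22 were not called in any comparison without the filter.

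Of 9 further CC ligand genes looked for, 6 were on the array and 3 were tested. Ccl6, a myeloid ligand known in rodents, was called lower in epithelium, with 33.2 units in vinclozolin epithelium against 167 in vinclozolin whole prostate (-2.03, adjusted p = 0.000769), and 17.7 units in control epithelium against 156 in control whole prostate (-2.42, adjusted p = 0.000411). Ccl19, the other Ccr7 ligand, averaged 19.9 units in vinclozolin epithelium and 13.8 units in control epithelium, with 33.3 units in vinclozolin whole prostate and 14.8 units in control whole prostate, and was not called in any of the 5 comparisons. None of the 3 was called between the lineages, where all 3 had a positive difference in each preparation, with medians of 0.50 in epithelium and 0.39 in whole prostate.

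The receptors were dim. Of 15 CC receptor and decoy receptor genes looked for, 10 were on the array and 4 were tested, the signalling receptor Ccr1 and the atypical receptors Ackr1, Ackr4 and Ccrl2. Ccr6, the receptor of Ccl20, averaged 2.6 units in vinclozolin epithelium, 5.8 in control epithelium, 16.8 in vinclozolin whole prostate and 5.2 in control whole prostate, and was not tested. Ccr2 averaged between 3.2 and 9.4 units over the groups and was not tested either. Ccrl2, which binds chemerin, was called higher in vinclozolin epithelium than in vinclozolin whole prostate (1.2, adjusted p = 0.0126), at 51.8 against 9.5 units, while the control difference of 0.50 was not called (adjusted p = 0.166). None of the 4 was called between the lineages.

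Genes upstream of CC ligand transcription were measured beside them. Of 14 tested cytokine, NF-kappaB, STAT, IRF and AP-1 genes, 8 were called higher and 0 lower in epithelium against whole prostate in each lineage, with medians of 1.07 in the vinclozolin and 1.40 in the control lineage. Over all probe sets 13.1% were higher and 14.2% lower in the vinclozolin lineage, and 12.9% higher and 15% lower in the control lineage, with medians of -0.06 and -0.05. Tnf averaged 92.1 units in vinclozolin epithelium against 9.0 in vinclozolin whole prostate, and 129 units in control epithelium against 5.2 in control whole prostate (2.04 and 2.71, adjusted p = 0.00239 and 0.000847). Its whole prostate readings were all under 16 units, at 3.5 and 14.4 in the vinclozolin and 7.5 and 2.8 in the control lineage. They may lie at background, so the size of these Tnf differences is uncertain. Il1b, interleukin-1 beta, was higher by 1.38 and 2.02 (adjusted p = 0.0105 and 0.00262). Nfkbia, an NF-kappaB inhibitor that NF-kappaB itself induces, was higher by 2.47 and 2.67 (adjusted p = 8.79e-05 and 6.48e-05), and Tnfaip3, a feedback inhibitor of the same pathway, by 1.60 and 1.92 (adjusted p = 0.000812 and 0.000418).

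The NF-kappaB subunit genes did not pass the test. Nfkb1, Nfkb2, Rela and Relb had differences between -0.18 and 0.06 in the vinclozolin and between 0.22 and 0.67 in the control lineage. In the control lineage Nfkb1 (0.67, adjusted p = 0.0503) and Rela (0.49, adjusted p = 0.0554) lay just outside the threshold. Jun and Fos, the immediate early AP-1 genes, were higher by 3.42 and 4.65 in the vinclozolin lineage and by 3.62 and 2.81 in the control lineage. Between the lineages, 1 of the 14 was called in whole prostate, Fos, which was lower in the vinclozolin lineage (-1.92, adjusted p = 0.00194), and 0 were called in epithelium. Fos was also the 1 called in the interaction term (1.84, adjusted p = 0.0163).

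**Figure D3:**
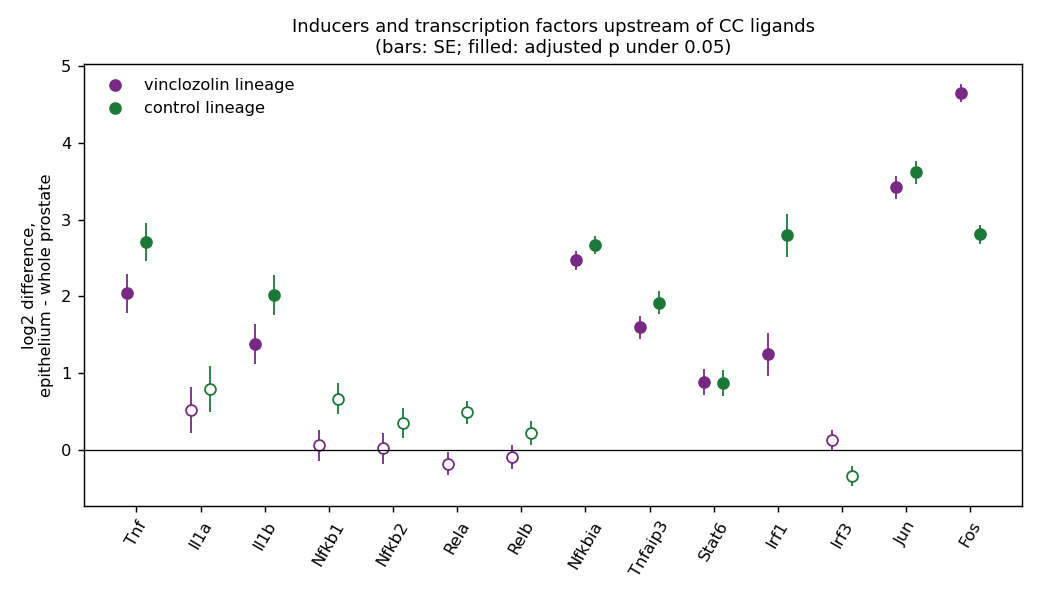
Log2 difference between epithelium and whole prostate for 14 genes upstream of CC ligand transcription, in the vinclozolin and the control lineage, with the SE of the fit and filled points where the adjusted p was under 0.05. Tnf, Il1b, Nfkbia, Tnfaip3, Stat6, Irf1, Jun and Fos are filled in both lineages and the NF-kappaB subunit genes are open in both.

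The genes most like Ccl20 over the 8 arrays, among 11484 others, were Col4a5, a basement membrane collagen chain, Ier3, an immediate early gene, and Cdh11, a cadherin of mesenchymal cells, each with a Pearson correlation of 0.999. Ier3 averaged 2819 and 3585 units in vinclozolin and control epithelium, against 116 and 147 units in vinclozolin and control whole prostate. A gene that differs strongly between the preparations must correlate with any other such gene over these arrays, and 987 genes had a correlation with Ccl20 over 0.9. The nearest to Ccl5 were Npff (0.983), Zfp955a and Pard6a (0.979 each), and to Ccl21 Usp19 (0.992), Sf3b2 and Zfp846 (0.989 each). These are descriptions over 8 arrays that share their preparation groups.

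Cell type markers that differed between the preparations beside the chemokines are given as measured. In the vinclozolin lineage, 7 of 10 tested macrophage and monocyte markers were called lower in epithelium than in whole prostate and 2 higher, and in the control lineage 5 were lower and 0 higher. Cd68 averaged 26.8 units in vinclozolin epithelium against 96.9 in vinclozolin whole prostate, and 29.4 units in control epithelium against 65.6 in control whole prostate. The 2 called higher were Cd14 (0.65, adjusted p = 0.00855, limma) and Lyz2 (0.60, adjusted p = 0.0356). The sum over the 11 macrophage markers was higher in epithelium, at 7199 to 7370 against 5046 to 5807 units in the vinclozolin lineage. In the control lineage it was 8709.6 to 10098.5 against 7337 to 7931 units. Lyz2 alone averaged 5671 units in vinclozolin and 7675 units in control epithelium within it. Of the 6 tested T and NK cell markers, 3 were lower and 0 higher in the vinclozolin lineage, and 2 were lower and 1 higher in the control lineage. Of the 4 blood endothelial markers, 3 were called higher in epithelium in the vinclozolin and 2 in the control lineage, with Pecam1 at 1.27 and 1.56 and Kdr, a receptor of vascular endothelial growth factor, at 1.39 and 1.80. The dendritic cell marker Cd83 was higher in both lineages, by 0.51 and 1.40, and Itgax was lower in the vinclozolin lineage (-1.22). The plasma cell gene Jchain was lower by log2 differences of -2.24 and -1.89, and Sdc1, which epithelium also expresses, was higher by 1.15 and 1.40. The mast cell markers Cpa3 and Cma1 were lower in both lineages. All 5 smooth muscle markers and 5 of 6 fibroblast markers were called higher in epithelium in both lineages, as were all 3 basal keratins, with median differences of 2.71 and 2.67 for smooth muscle, 1.31 and 1.33 for fibroblasts and 2.16 and 2.40 for basal keratins in the vinclozolin and control lineages. Of the 6 luminal markers, 0 were higher and 1 lower in the vinclozolin lineage, and 1 was higher and 1 lower in the control lineage. The part of these cell types in the level of Ccl20 or of the other members was not tested.

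**Figure D4:**
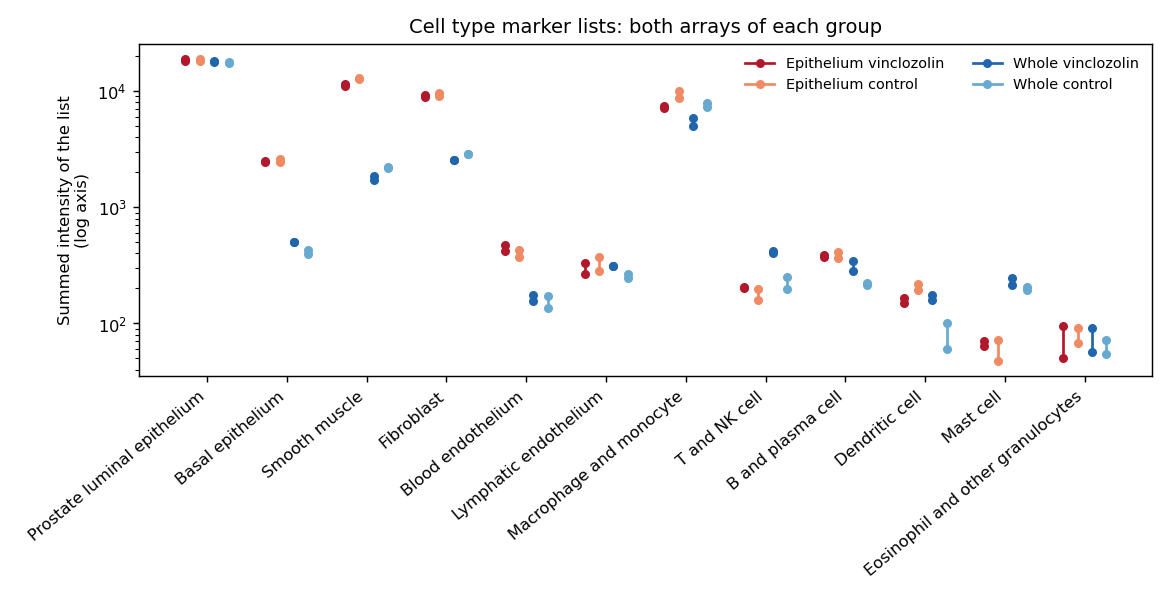
Summed intensity of each cell type marker list (log axis) on both arrays of each group. Smooth muscle, fibroblast and basal markers are higher on the epithelium arrays, mast cell markers are lower there, and T and NK cell markers are highest in vinclozolin whole prostate, at 400 to 420 units.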

How the data were processed

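RNA of 8 pooled rat prostate samples, in 4 groups of 2, had been hybridised to 1-colour Affymetrix arrays after biotin labelling, per the labels' protocols. The deposited file gives 1 linear intensity per probe set and array. The authors had brought every array to the same 2% trimmed mean of about 125 units, as the values show. No source used here names the summarising software. Array medians ranged from 28.7 to 38.7 units, and between 28.3% and 36.7% of probe sets read under 16 units. No detection call was used here, and the number of arrays limits the precision.

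After 57 control probe sets were left out, 16 was added, log2 was taken, and the arrays were quantile normalised because their medians differed by 0.29. A filter at the 30th percentile of the mean log2 value kept 21729 of the remaining 31042. limma 3.58.1 in R 4.3.3 fitted the 4 group means on all arrays (4 residual degrees of freedom, 2.62 from the prior). Benjamini-Hochberg adjustment ran over all 21729 probe sets, and an adjusted p under 0.05 was a call. Intervals are 95% intervals of that fit. The same fit was also run on simulated data with independent normal noise drawn from its own prior, so that run does not test these assumptions.

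Genes were named from the platform annotation where a probe set had 1 symbol. The members, gene lists and tests were chosen with earlier results of these data known. All member probe sets are described. Each listed gene is counted once, by its brightest probe set. Of a list, the called genes, or else the 2 with the lowest p, could be named. Pbsn, Ccl19, Ccr2, Ccr6 and the NF-kappaB subunit genes fall outside that rule and were chosen after their values were seen. Likeness of pattern was a Pearson correlation over the 8 arrays, for the 3 tested members with the widest range of group means. Alternatives were the values as deposited, median centring, pseudocounts of 1 and 32, no filter or one at the 50th percentile, a trended robust prior, array weights, only the arrays compared, the replicate number as a block, and each array left out. The labels do not say that the replicate numbers pair samples. The deviations of same-numbered arrays correlated between -0.02 and 0.03 over the tested probe sets, which cannot exclude a small shared effect. Python 3.11.15 and matplotlib 3.10.9 were used for tables and plots.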

Additional observations from a re-analysis of the deposited data

How the results depend on the processing

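The count of called CC chemokines was 0 in the vinclozolin against control comparisons of whole prostate and of epithelium, and in their difference, under every alternative run. For control epithelium against control whole prostate the count of 5 lay between 2 and 6 with an array left out, being 3 and 2 without control whole prostate replicate 1 and 2 and 3 without control epithelium replicate 2, and between 4 and 6 otherwise. For vinclozolin epithelium against vinclozolin whole prostate the count of 4 lay between 2 and 3 with an array left out. It was 2 without vinclozolin whole prostate replicate 2, 2 with a pseudocount of 1 and 2 with only the 4 arrays compared. With the replicate block the counts were 5 and 3, and Ccl4 was the call lost. Over all probe sets, the count called ranged from 26 to 1814 over the alternatives (379 as reported) between the lineages in whole prostate, from 0 to 205 (2 as reported) in epithelium and from 5 to 540 (63 as reported) for the interaction. It ranged from 2661 to 7782 (6051 as reported) between the control preparations and from 3366 to 7428 (5946 as reported) between the vinclozolin preparations. The highest of the lineage and interaction counts came with the trended robust prior. Leaving out an array leaves a lone sample that is assumed to vary like the other groups.

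Of 613 recomputed single-gene differences, 571 kept their direction and side of the threshold, 23 lost a call, 5 gained one and 14 changed sign, none of them called. On the values as deposited, the interaction term of Ccl20 was -0.01, and with a pseudocount of 32 that of Ccl7 was 0.00. With an array left out, the lineage difference in whole prostate ranged from -0.36 to 0.02 for Ccl21 and from -0.16 to 0.38 for Ccl7. In epithelium it ranged from -0.26 to 0.01 for Ccl2, from -0.08 to 0.09 for Ccl3 and from -0.20 to 0.42 for Ccl7. The interaction term ranged from -0.07 to 0.28 for Ccl20, from -0.49 to 0.08 for Ccl21 and from -0.31 to 0.31 for Ccl7. The cause was not tested. Apart from Ccl20 in epithelium, no member read above 97.4 units, and signal near background may limit these values. With no detection call this cannot be told, and the size of a difference from a dim group depends on the pseudocount.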
